A study of Mus musculus with 8 samples.

Results

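Sterol and fatty acid synthesis genes, with those that control the pathway, were followed in N33 mouse embryonic stem cells (ESCs), a line from C57BL/6J mice (C57BL/6 in the labels), in 4 culture conditions with 2 samples each. The genes were taken by symbol from a list of 33, and all 33 were found among the 20278 genes listed in any sample, in every sample, and passed the filter of 10 counts in at least 2 samples that left 15287 genes for testing. In −F the cells grew on gelatin in medium with serum, in F on a layer of mouse embryonic fibroblast feeders inactivated with mitomycin C in the same medium, and in F2i on feeders in serum medium with 2i added. In NB2i they grew on poly-L-ornithine and laminin in N2B27, a defined medium without serum, with 2i and without feeders. The 2i inhibitors are CHIR99021 against Gsk3β, at 3 µM in N2B27, and PD0325901 against Mek, at 1 µM. All 4 conditions held the cytokine LIF, and serum medium held 20% fetal bovine serum. Cells from feeder plates were parted from feeders by letting the feeders settle on dishes before RNA was taken, and poly-A RNA was read in bulk. The study calls the 2 samples each of −F and F biological replicates, and the labels number the 2 samples of every condition as replicates. All are of 1 cell line, so the tests measure the spread between such samples. Expected counts per sample summed to 20129641 to 20664488.

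Cholesterol is built from acetyl-CoA through mevalonate, isoprenoids and squalene, and fatty acids are built from the same acetyl-CoA and then lengthened and desaturated. Both pathways are driven by the SREBP transcription factors, which are made as membrane proteins held in the endoplasmic reticulum by Insig proteins and carried to the Golgi by Scap when sterol is low, where proteases free the active part. Serum brings cholesterol in lipoproteins as well as fatty acids, and cells in culture take them up. In the list, 7 genes belong to the mevalonate steps, 11 to the steps from squalene to cholesterol, 5 to SREBP control and sterol transport, and 10 to fatty acid synthesis.

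The promoters of 26 of the 33 genes were found in a RefSeq table of GRCm38.p6, the build that mm10 names, with 300 bases each from 250 before to 50 after the start of transcription. Fads1, Fdft1, Fdps, Scd1, Scd2, Sqle and Stard4 were not matched. The box CCAAT is the site of NF-Y, a factor known to bind beside SREBP at sterol gene promoters. CCAAT, searched as these letters on both strands, was in 21 of the 26 promoters and in 41.1% of 27025 genes of the table. This share and those given below for other sequences are over all genes of the table, not only the 15287 tested. The 4 promoters printed here are those of Insig1 with 1 box, Ebp with 2 and Msmo1 with 3, from genes that were highest in NB2i, and Hmgcs1 with 4, a gene that was lowest there. They run 5′ to 3′ along the gene's strand, with CCAAT or its reverse complement ATTGG in capitals, and lie at chr5:28071162-28071461 (plus strand, Insig1), chrX:8193463-8193762 (minus strand, Ebp), chr8:64733529-64733828 (minus strand, Msmo1) and chr13:119690101-119690400 (plus strand, Hmgcs1).
Insig1: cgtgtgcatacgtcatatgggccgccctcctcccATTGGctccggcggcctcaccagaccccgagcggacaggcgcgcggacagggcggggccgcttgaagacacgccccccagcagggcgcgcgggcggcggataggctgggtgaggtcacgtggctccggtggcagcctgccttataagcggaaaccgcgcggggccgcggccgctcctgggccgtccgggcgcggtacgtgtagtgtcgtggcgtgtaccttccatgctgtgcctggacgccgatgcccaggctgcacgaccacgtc
Ebp: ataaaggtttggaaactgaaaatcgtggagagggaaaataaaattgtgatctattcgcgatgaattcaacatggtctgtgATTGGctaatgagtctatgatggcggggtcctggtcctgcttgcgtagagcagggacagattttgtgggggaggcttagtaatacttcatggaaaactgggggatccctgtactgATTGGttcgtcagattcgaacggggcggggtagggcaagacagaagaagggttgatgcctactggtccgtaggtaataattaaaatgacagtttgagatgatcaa
Msmo1: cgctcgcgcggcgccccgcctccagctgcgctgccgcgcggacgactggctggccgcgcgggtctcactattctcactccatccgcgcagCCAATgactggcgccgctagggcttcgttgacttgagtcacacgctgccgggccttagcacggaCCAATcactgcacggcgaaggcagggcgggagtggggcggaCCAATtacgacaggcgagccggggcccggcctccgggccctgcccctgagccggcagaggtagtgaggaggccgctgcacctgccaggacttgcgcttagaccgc
Hmgcs1: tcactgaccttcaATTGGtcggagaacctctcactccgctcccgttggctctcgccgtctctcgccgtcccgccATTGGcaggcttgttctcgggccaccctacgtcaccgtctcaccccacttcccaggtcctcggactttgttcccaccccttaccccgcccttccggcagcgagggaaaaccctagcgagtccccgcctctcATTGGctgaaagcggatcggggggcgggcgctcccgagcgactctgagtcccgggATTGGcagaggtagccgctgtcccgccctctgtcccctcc

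Counted from the start of transcription, with bases before it negative, the boxes began at −216 in Insig1, at −170 and −55 in Ebp, and at −160, −96 and −55 in Msmo1. In Hmgcs1 they began at −237, −176, −45 and 10. Of the 18 matched genes that rose in NB2i against each of the other 3 conditions, 16 held CCAAT, and of the 3 that fell against each, 1 did. Among the matched genes that did neither, Fasn, Hsd17b7, Idi1 and Mvd held CCAAT as well, and Elovl6 did not. No test was made on this split. Acaca, Acat2, Elovl6, Fads2 and Scap lacked CCAAT in this window. The GC box GGGCGG, the core of an Sp1 site, was in 22 of the 26 and in 38.2% of genes. CACGTG, an E-box, was in 5 of the 26 and in 8.09% of genes. TCACNCCAC, a short form of the sterol response element in which N is any base, was in Hmgcs1 alone and in 1.44% of genes. These matches were searched on both strands with overlaps allowed, and describe letters in these windows and not binding.

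The 33 genes together held a larger share of each NB2i sample than of any other sample. They took 0.466% and 0.475% of the counts in −F, 0.541% and 0.552% in F, 0.566% and 0.569% in F2i, and 0.886% and 0.874% in NB2i. Summed over the list as FPKM, which is counts per length and depth, the level was 1264 in both −F samples, 1435 and 1467 in F, 1474 and 1484 in F2i, and 2366 and 2332 in NB2i. The replicates of each condition lay close together, and the 4 conditions did not overlap. By condition means, 25 genes were highest in NB2i, 5 in F, 2 in F2i and 1 in −F. The lowest mean was in −F for 18 genes, in F2i for 10, in NB2i for 3 and in F for 2. The order NB2i, F2i, F, −F from high to low held for 10 genes, and the order NB2i, F, −F, F2i for 7. Highest means, lowest means and orders were not counted over all genes.

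**Figure D1:**
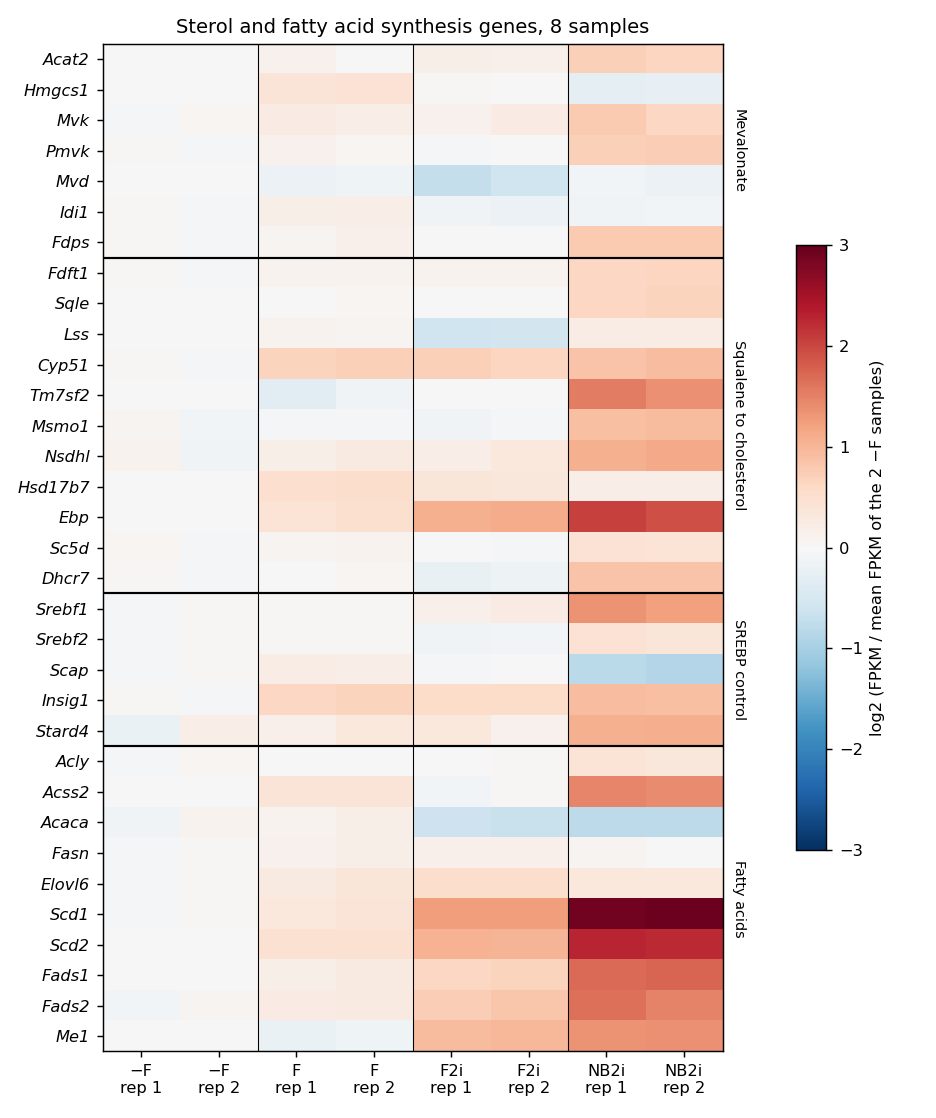
Level of each of the 33 genes (rows, by role) in each of the 8 samples (columns), as the log2 ratio of FPKM to the mean of the 2 −F samples, red above and blue below. The NB2i columns are red for most genes, deepest for Scd1 and Scd2, and blue for Acaca, Hmgcs1 and Scap.

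Without any test, both NB2i samples lay above the other 6 for 25 of the 33 genes, where 26.0% of all genes tested did so, and below the other 6 for 3, where 26.6% did. Both −F samples lay below the other 6 for 12 genes (14.4% of all genes) and above them for 1, Mvd (21.4%). The mevalonate genes summed to 412.7 and 401.7 FPKM in −F, 456.7 and 466.4 in F, 393.6 and 390.4 in F2i and 517.9 and 512.3 in NB2i. The fatty acid genes summed to 402.5 and 423.0 FPKM in −F, 474.9 and 484.1 in F, 594.1 and 600.5 in F2i and 1077 and 1053 in NB2i. The sums of the mevalonate genes were lowest in F2i, and those of the fatty acid genes climbed from −F through F and F2i to NB2i. The genes from squalene to cholesterol ran from 263.2 to 300.3 FPKM over the 6 serum samples and stood at 486.2 and 491.6 in NB2i.

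**Figure D2:**
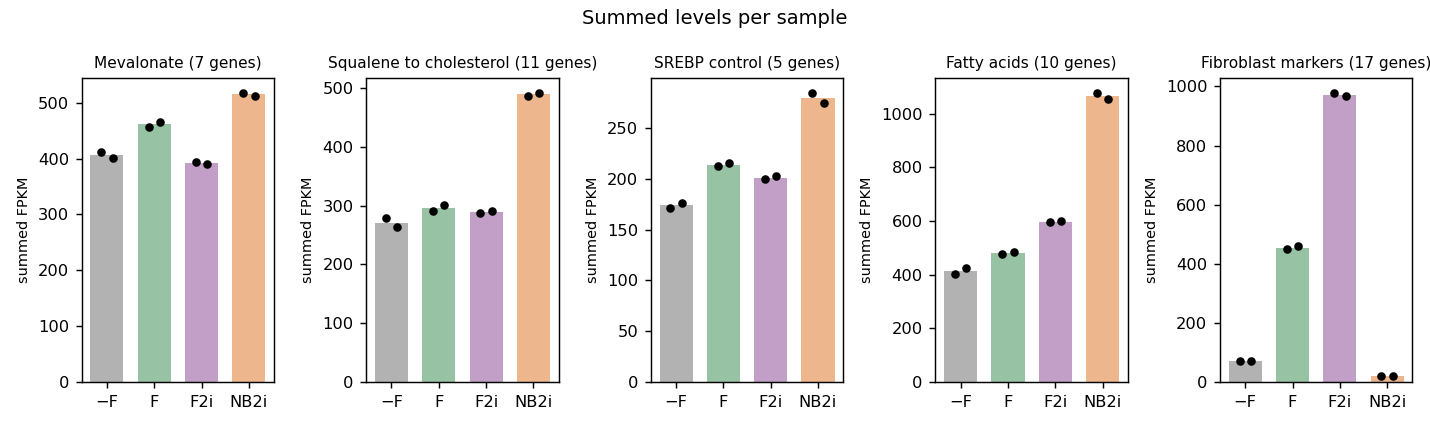
Summed FPKM of the genes of each role and of 17 fibroblast markers, with bars from 0 to the mean of 2 samples and points for the samples, in −F, F, F2i and NB2i. The 4 synthesis sums are highest in NB2i, while the fibroblast markers run from 966.3 and 978.3 in F2i down to 19.29 and 20.81 in NB2i.

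Other cells could add RNA to these bulk samples, in which fewer cells of a type and less RNA per cell cannot be told apart. The 17 fibroblast markers summed to 72.44 and 71.43 FPKM in −F, 449.4 and 458.7 in F, 978.3 and 966.3 in F2i and 20.81 and 19.29 in NB2i. None of the 17 was at 0 in F or F2i, 1 and 2 were at 0 in the −F samples, and 4 and 6 in NB2i, where Postn, Dcn, Lum and S100a4 were at 0 in both. Fibroblasts make sterols and fatty acids too. By the test described in the next paragraph, 16 of the markers were higher in F than in −F, where 21.7% of all genes were. In F2i 13 were higher than in F, where 27.3% of all genes were. All 17 were lower in NB2i than in F2i, where 30.8% of all genes were. Against −F, 12 were lower in NB2i and 1 was higher, where 35.4% and 36.9% of all genes were. The part of the fibroblast markers in the results that follow was not tested. All 8 ESC markers were above 0 in every sample and summed to 1894 to 2467 FPKM. The 7 endoderm markers summed to 5.35 and 4.34 FPKM in −F, 11.55 and 12.23 in F, 4.74 and 4.61 in F2i and 2.76 and 2.99 in NB2i. Of the 6 of them tested, 6 were higher in F than in −F, 4 were lower in F2i than in F and 6 were lower in NB2i than in F. The shares of all genes so called were 21.7%, 27.4% and 37.1%. The 6 neural markers summed to 28.43 to 43.68 FPKM, lowest in NB2i. The part of these markers in the results was not tested either.

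Counts were compared with edgeR's quasi-likelihood test over all 15287 genes, with p-values adjusted by Benjamini and Hochberg's method, and a gene was called higher or lower at an adjusted p under 0.05. With 2 samples against 2, an exact permutation test cannot go under 0.3333, so every adjusted p here rests on the model, whose biological coefficient of variation was 3.25%. The comparisons share samples and are given side by side.

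Cells in N2B27 with 2i had higher levels of most of the list than cells on feeders in serum with 2i. Between NB2i and F2i the inhibitors are common to both, though their concentrations in F2i are not given in the sources used here, while medium, serum, feeders and growth surface differ and cannot be told apart. Of the 33 genes, 26 were higher in NB2i and 5 were lower, where 33.3% of all genes were higher and 30.8% lower. At 2-fold or more 8 were higher and 0 lower, against 6.01% and 13.3% of all genes. The median log2 fold change was 0.54 over the list and 0.02 over all genes. By role, 5 of 7 mevalonate genes, 10 of 11 from squalene to cholesterol, 4 of 5 of SREBP control and 7 of 10 of fatty acid synthesis were higher. The 5 lower genes were Hmgcs1, Scap, Elovl6, Acaca and Fasn, and Idi1 and Hsd17b7 were not called. Acaca and Fasn were both lost from the 5 without F2i replicate 1, F2i replicate 2 or NB2i replicate 2, which left 3.

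Against serum cells on gelatin the list stood further apart. NB2i and −F are both without feeders and differ in medium, serum, 2i and coating, which cannot be told apart. In NB2i 28 genes were higher and 3 lower, where 36.9% and 35.4% of all genes were, and 11 were higher at 2-fold and 0 lower, where 11.1% and 16.1% were. All 11 genes from squalene to cholesterol and 9 of 10 of fatty acid synthesis were higher, 6 of these 9 at 2-fold. The median was 0.79 on the log2 scale for the list and 0.01 for all genes. Hmgcs1, Scap and Acaca were lower, and Mvd and Idi1 were not called.

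Against F, cells in NB2i had 25 genes higher and 5 lower, where 36.3% and 37.1% of all genes were. At 2-fold 10 were higher, where 1535 of all 15287 genes were, and Scap alone was lower, where 17.6% were. The median was 0.66 against −0.01 for all genes. Here Idi1 and Hsd17b7 were lower beside Hmgcs1, Scap and Acaca. The same 25 genes were called higher in NB2i against each of −F, F and F2i, and 3 (Acaca, Hmgcs1 and Scap) lower against each. Such joint calls were not counted over all genes. In FPKM, without a test, both NB2i samples lay above all others for 26.0% of all genes tested and below them for 26.6%.

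**Figure D3:**
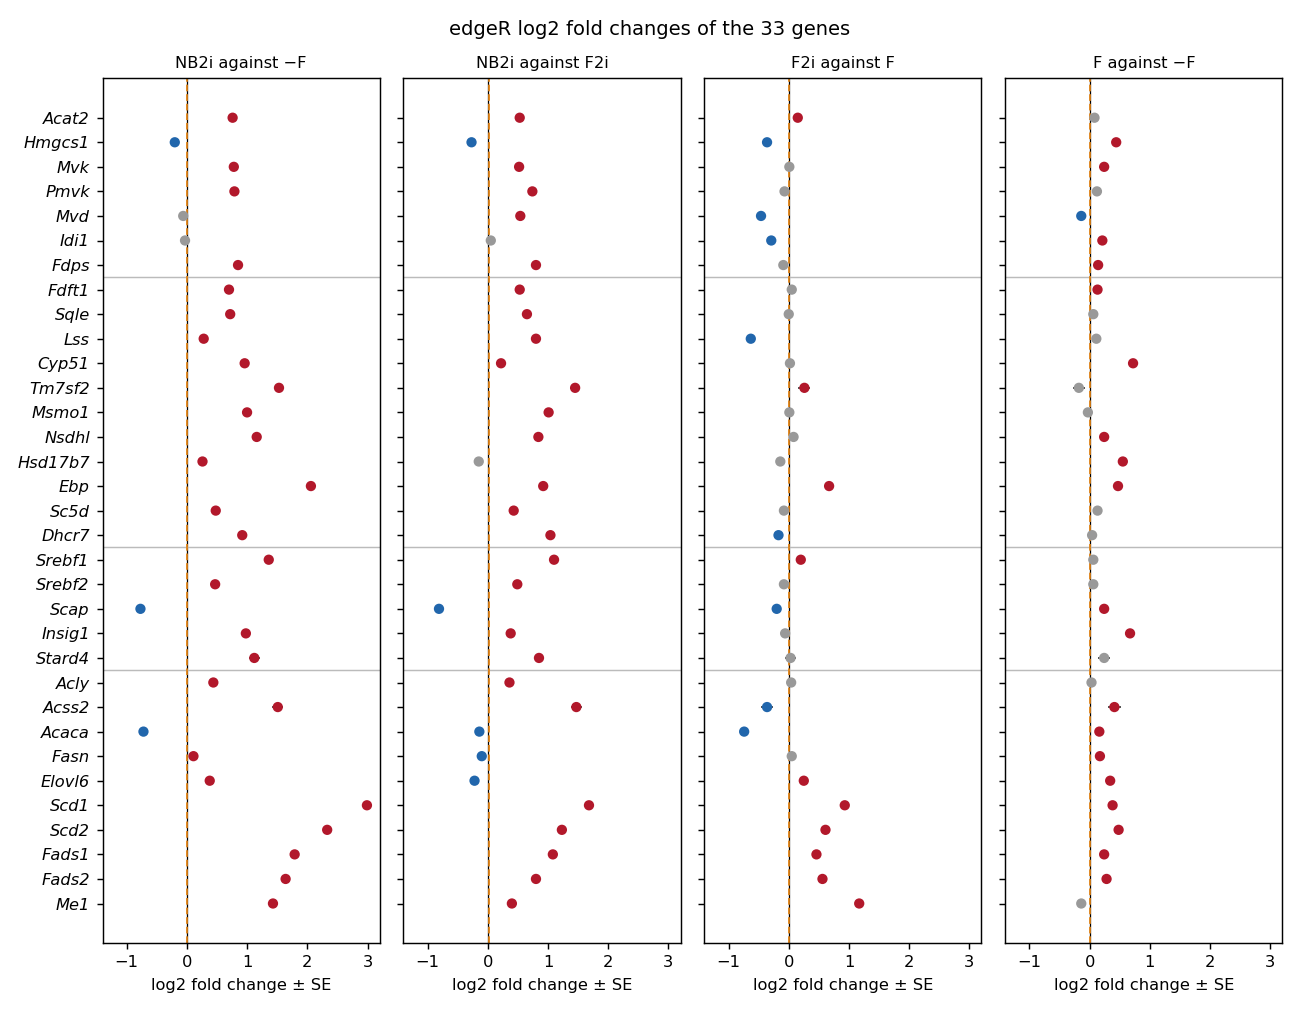
edgeR log2 fold changes with SE (x axis) of the 33 genes (y axis, by role) in 4 comparisons, with red for higher, blue for lower and grey for not called, and a dashed line at the median of all genes tested. In the 2 NB2i panels most points lie right of 0, while in the F2i panel they lie on both sides.

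Adding 2i to feeder and serum cultures moved genes both ways. Between F2i and F, 10 genes rose, 8 fell and 15 were not called, where 27.3% of all genes rose and 27.4% fell, so the list's shares of 10 and 8 in 33 sat near the background. Only Me1 rose by 2-fold and 0 fell so far, where 6.44% and 7.00% of all genes did. The median log2 fold change was 0.012 for the list and −0.003 for all genes. The genes that rose were Acat2, Tm7sf2, Ebp, Srebf1, Elovl6, Scd1, Scd2, Fads1, Fads2 and Me1, of which 6 are of fatty acid synthesis. The genes that fell were Hmgcs1, Mvd, Idi1, Lss, Dhcr7, Scap, Acss2 and Acaca. Without F2i replicate 1, 5 genes fell in place of 8.

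Differences between feeder and gelatin cultures in serum were small and mostly upward. In F, 19 genes were higher than in −F and 1, Mvd, was lower, where 21.7% and 18.5% of all genes were. None changed by 2-fold in either direction, where 5.59% and 1.65% of all genes did. The median was 0.17 against 0 for all genes, and 8 of the 10 fatty acid genes and 4 of 7 mevalonate genes were among the 19. The call of Mvd was lost, to 0, without any 1 of the 4 samples.

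**Figure D4:**
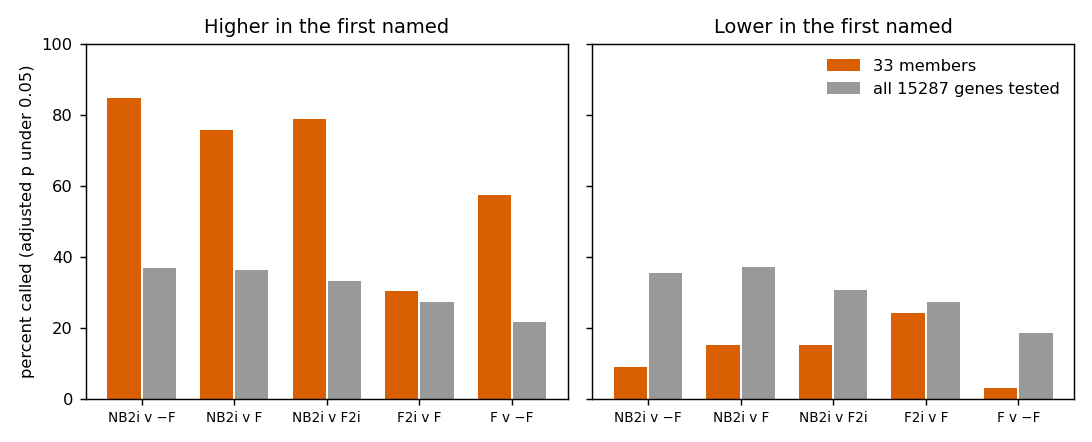
Percent of the 33 genes (orange) and of all genes tested (grey) called higher (left) or lower (right) in 5 comparisons. The orange bars for higher genes stand far above the grey in the 3 comparisons with NB2i, and the F2i against F pair stands level. For F against −F the orange bar for higher genes also stands above the grey, at 19 of 33 genes against 21.7% of all genes.

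A contrast asked whether the change from −F to NB2i differed from the change from F to F2i, which share no sample. It was taken as a difference of the log2 changes. Rearranged, it is the change from F2i to NB2i plus the change from −F to F, so it is not separate from those comparisons. Medium, serum and growth surface differ between −F and NB2i but not between F and F2i. 2i is added in both changes, though its concentrations in F2i are not given, and neither change adds or removes feeders. On the log2 scale, feeders and a like dose of 2i enter only where effects depend on each other. These parts cannot be told apart. The contrast was higher for 29 genes and lower for 1, Scap, where 26.1% and 22.8% of all genes were. At 2-fold 12 were higher and 0 lower, where 5.87% and 10.6% were. The median was 0.86 against 0.03. Acaca, Fasn and Elovl6 were not called in it. Hmgcs1 was at the edge, at 0.16 with an adjusted p of 0.0242 by edgeR, and was not called without F replicate 2 (log2 0.13, adjusted p = 0.13), F2i replicate 2 (log2 0.15, adjusted p = 0.0865), NB2i replicate 1 (log2 0.17, adjusted p = 0.0543) or NB2i replicate 2 (log2 0.15, adjusted p = 0.0905). Elovl6 was called higher without −F replicate 2 (log2 0.15, adjusted p = 0.0417) or F replicate 1 (log2 0.17, adjusted p = 0.042).

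Of the genes of SREBP control, Srebf1, Srebf2, Insig1 and Stard4 were higher in NB2i than in each other condition, and Scap was lower. Srebf1, which encodes the SREBP-1 factors that drive fatty acid genes, was at 16.1 and 16.8 FPKM in −F, 16.96 and 16.7 in F, 18.2 and 19.5 in F2i and 42.02 and 38.6 in NB2i. Both NB2i samples stood far above the other 6, which lay close together. Against −F the rise was 2.57-fold (log2 1.36, SE 0.051, edgeR adjusted p = 4.35e-16), and against F2i it was 2.15-fold. Srebf2, which encodes SREBP-2, the main driver of sterol genes, was at 74.7 and 78.8 in −F, 78.8 and 78.8 in F, 71.9 and 73.1 in F2i and 104 and 98.8 in NB2i. The 2 NB2i samples were again the highest, but by a smaller step of log2 0.47 (SE 0.043) over −F and 0.49 over F2i. Between F2i and F, Srebf1 rose by log2 0.20, while Srebf2 was not called. Without F2i replicate 2 the Srebf1 call was lost (log2 0.15, adjusted p = 0.0725).

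Scap, the escort protein that carries SREBP to the Golgi, was lowest in NB2i. Its level was 11.5 and 12.2 FPKM in −F, 13.9 and 13.6 in F, 11.5 and 11.9 in F2i and 6.80 and 6.48 in NB2i. NB2i was below all 6 serum samples, without overlap, and F was above all others. Scap fell in NB2i with log2 fold changes of −0.81 (SE 0.063, edgeR adjusted p = 2.96e-10) against F2i, −0.77 against −F and −1.01 against F. It was the only gene of the list lower in the difference of differences, at −0.57 (adjusted p = 9.84e-06). Its log2 fold change between F and F2i was −0.20, which was not called without F2i replicate 1 (log2 −0.17, adjusted p = 0.0588). Insig1, which holds the complex in the endoplasmic reticulum and is itself an SREBP target, was at 62.6 and 60.6 in −F, 94.6 and 97.8 in F, 89.5 and 90.3 in F2i and 117 and 116 in NB2i. The −F samples were the lowest and the NB2i samples the highest. Insig1 rose with feeders by log2 0.67 (SE 0.042, adjusted p = 2.94e-11), was not called on adding 2i, and was 1.98-fold higher in NB2i than in −F. Stard4, a cytosolic carrier of sterol, was at 6.19 and 8.10 in −F, 7.91 and 8.76 in F, 8.87 and 7.75 in F2i and 14.7 and 15.02 in NB2i, where it was highest. Its log2 fold change over −F was 1.12.

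**Figure D5:**
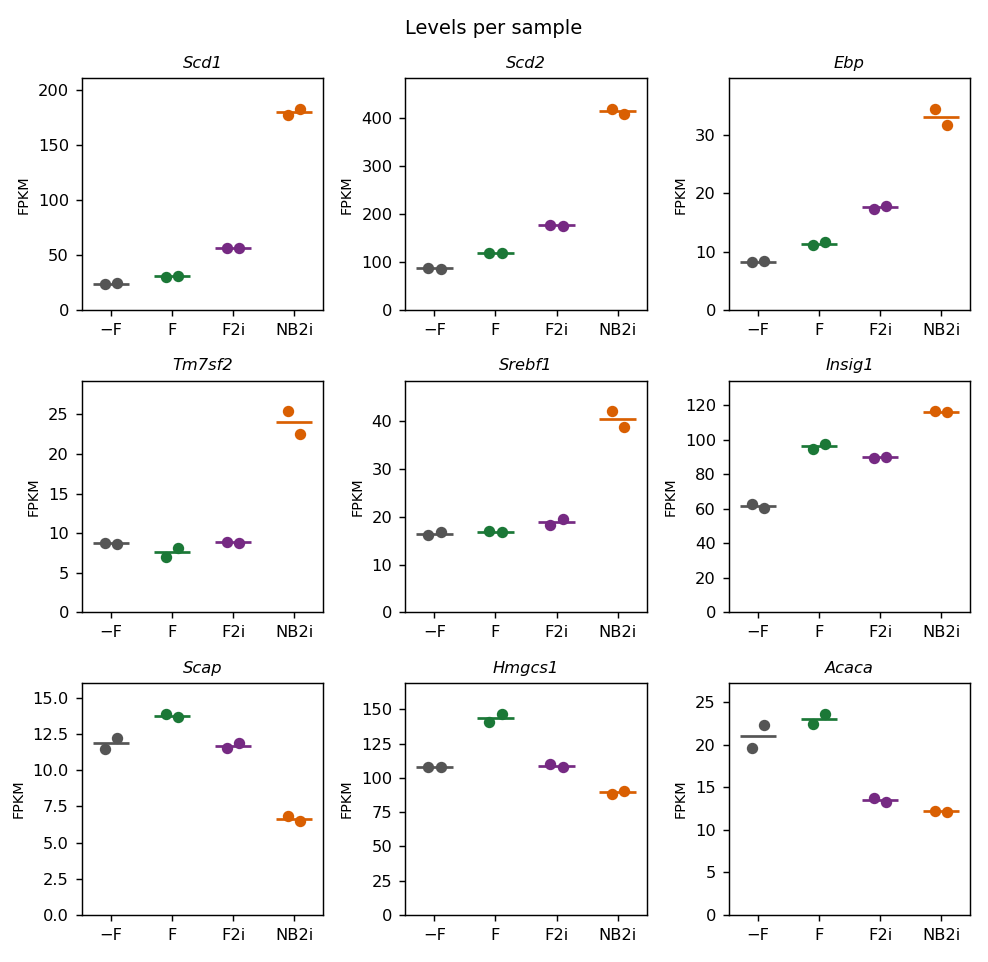
FPKM per sample (y axis, from 0) of 9 genes in −F, F, F2i and NB2i, with points for the 2 samples and a line at their mean, the 9 having been chosen after their values were seen. Scd1, Scd2, Ebp, Tm7sf2 and Srebf1 are highest in NB2i by a wide step, and Scap, Hmgcs1 and Acaca are lowest there.

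Among the mevalonate genes, the largest changes in NB2i were upward. Fdps makes farnesyl diphosphate, the branch point to sterols and protein prenylation. It was at 121 and 114 FPKM in −F, 124 and 131 in F, 117 and 116 in F2i and 202 and 201 in NB2i, so that both NB2i samples lay over the rest. The rise was 1.8-fold over −F (log2 0.85, SE 0.043, edgeR adjusted p = 1.13e-13) and 1.74-fold over F2i. Pmvk, the second kinase that acts on mevalonate, was at 26.3 and 24.9 in −F, 28.1 and 26.5 in F, 25.1 and 25.7 in F2i and 41.7 and 42.98 in NB2i. The first kinase, Mvk, was at 10.9 and 11.8, 13.4 and 13.1, 12.5 and 13.6 and 19.7 and 17.6 in the same order of conditions. Both kinases were highest in NB2i without overlap, with log2 fold changes over −F of 0.79 and 0.78. Acat2, the cytosolic thiolase that starts the path, was at 42.1 and 41.8 in −F, 45.9 and 41.7 in F, 47.5 and 46.8 in F2i and 69.4 and 65.9 in NB2i, and rose by 0.76 against −F. Part of its reads were divided with other genes, as its counts were not whole in 8 of 8 samples.

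Hmgcs1, which joins acetyl-CoA to acetoacetyl-CoA in the step after Acat2, went down. It was at 108 and 108 FPKM in −F, 141 and 147 in F, 109.9 and 108 in F2i and 88.5 and 90.6 in NB2i. F was the highest condition, −F and F2i overlapped, and NB2i was the lowest. By edgeR it rose with feeders by log2 0.44 (SE 0.040) and fell on adding 2i with −0.36. In NB2i it was lower than in F2i (log2 −0.27, adjusted p = 5.70e-06), −F (−0.20) and F (−0.64). Mvd, the decarboxylase that makes isopentenyl diphosphate, was at 44.6 and 43.8 in −F, 39.2 and 40.1 in F, 27.1 and 29.1 in F2i and 41.9 and 39.1 in NB2i. Its F2i samples lay below the other 6. Mvd fell between F and F2i (log2 −0.46), was higher in NB2i than in F2i (log2 0.54), and was not called between NB2i and −F (−0.06, adjusted p = 0.302). The lower call of Mvd in F against −F (−0.14, adjusted p = 0.0447) was lost without each of the 4 samples concerned, at adjusted p = 0.127 without −F replicate 1, 0.0624 without −F replicate 2, 0.193 without F replicate 1 and 0.0814 without F replicate 2. Idi1, the isomerase that interconverts the isoprene units, had 51.7 to 67.6 FPKM over the 8 samples, was highest in F, and fell in F2i (log2 −0.29).

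From squalene to cholesterol, 3 genes were at least 2-fold higher in NB2i than in −F. Ebp, which shifts a double bond in the sterol ring, was at 8.24 and 8.35 FPKM in −F, 11.1 and 11.6 in F, 17.3 and 17.8 in F2i and 34.5 and 31.7 in NB2i. It climbed from −F through F and F2i to NB2i with no overlap between conditions, and each step was called, with log2 fold changes of 0.47, 0.67 and 0.92. Over −F the rise was 4.18-fold (log2 2.06, SE 0.072, edgeR adjusted p = 1.28e-16). Tm7sf2, a sterol reductase, was at 8.79 and 8.63 in −F, 7.04 and 8.09 in F, 8.83 and 8.82 in F2i and 25.4 and 22.6 in NB2i. The NB2i samples stood above the other 6, 2.88-fold over −F and 2.73-fold over F2i, and the F samples lay below the rest. Its rise of 0.26 between F and F2i was lost without F replicate 1 (log2 0.16, adjusted p = 0.284), F2i replicate 1 (log2 0.26, adjusted p = 0.0974) and F2i replicate 2 (log2 0.26, adjusted p = 0.0996). Tm7sf2 lies over part of Vps51, and the counting is not stated to use strand. Nsdhl, which takes part in removing methyl groups from the sterol, was at 14.8 and 12.7 in −F, 15.4 and 16.5 in F, 15.8 and 17.03 in F2i and 28.6 and 29.9 in NB2i, and rose by log2 1.16 over −F. Its groups did not overlap between NB2i and the other conditions.

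Msmo1, the oxidase that acts on those methyl groups, was at 70.01 and 63.5 FPKM in −F, 63.6 and 65.4 in F, 62.3 and 64.4 in F2i and 125 and 129 in NB2i. The 6 serum samples lay within a narrow band and NB2i stood above it. The log2 fold change was 1.00 over −F (SE 0.047, edgeR adjusted p = 2.44e-14), just under the 2-fold threshold, and 1.01 over F2i. Dhcr7, a late reductase of the path, was at 35.1 and 33.2 in −F, 33.8 and 35.5 in F, 29.4 and 30.8 in F2i and 61.6 and 61.9 in NB2i, and was 2.06-fold higher in NB2i than in F2i. Its fall between F and F2i (log2 −0.17) was not called without F replicate 2 (log2 −0.12, adjusted p = 0.114) or F2i replicate 1 (log2 −0.13, adjusted p = 0.0921). Cyp51, the demethylase that acts on lanosterol, was at 25.4 and 23.9 in −F, 39.04 and 40.8 in F, 40.2 and 38.6 in F2i and 44.7 and 46.6 in NB2i. Here −F stood below the other 6 samples, with a rise of log2 0.72 on feeders (SE 0.047) and a smaller step of 0.22 between F2i and NB2i.

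The other 5 genes of these steps had smaller largest changes over the 5 comparisons. Fdft1 (squalene synthase), Sqle (squalene epoxidase), Lss (lanosterol synthase) and Sc5d (a sterol desaturase) were higher in NB2i than in −F by log2 0.70, 0.72, 0.28 and 0.48, and than in F2i by 0.53, 0.65, 0.80 and 0.43. Lss fell between F and F2i (log2 −0.63), where its F2i samples were the lowest of the 8. Hsd17b7, a sterol keto reductase, was highest in F and was higher in NB2i than in −F (log2 0.26) and lower than in F (−0.28). Its level was low, from 3.79 to 5.59 FPKM. DESeq2 did not call the first of these Hsd17b7 differences (adjusted p = 0.0649).

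The largest changes of the list were in fatty acid desaturation. Scd1 and Scd2, which put a double bond into stearic and palmitic acid, lie in one region of chromosome 19 (chr19:44394450-44407709 and chr19:44293676-44306864, mm10). Scd1 was at 23.3 and 24.4 FPKM in −F, 29.8 and 31.2 in F, 56.4 and 56.6 in F2i and 177 and 183 in NB2i. Scd2 was at 87.5 and 85.7 in −F, 119.8 and 119 in F, 178 and 176 in F2i and 419.7 and 409 in NB2i. Both climbed in each step from −F to F, F2i and NB2i, with no overlap. For Scd1 the steps were log2 0.38, 0.93 and 1.68, and for Scd2 they were 0.48, 0.61 and 1.23. NB2i stood 7.93-fold over −F for Scd1 (SE of the log2 value 0.045, edgeR adjusted p = 1.99e-22) and 5.01-fold for Scd2 (adjusted p = 1.87e-21). The counts of both were not whole in any sample, so reads were divided with other genes, and the split between the 2 paralogs rests on that estimate.

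Fads1 and Fads2, which desaturate polyunsaturated fatty acids, also lie near each other on chromosome 19 (chr19:10182877-10196874 and chr19:10062765-10101503, mm10). Fads1 was at 23.1 and 22.6 FPKM in −F, 25.8 and 27.4 in F, 35.2 and 36.2 in F2i and 73.99 and 76.3 in NB2i. Fads2 was at 27.6 and 30.8 in −F, 34.6 and 35.3 in F, 48.8 and 51.6 in F2i and 92.02 and 81.8 in NB2i. The 4 conditions again rose in that order without overlap, to 3.45-fold and 3.12-fold over −F. Me1, the malic enzyme that gives NADPH, was at 11.6 and 11.3 in −F, 10.01 and 10.4 in F, 22.1 and 22.8 in F2i and 29.3 and 29.8 in NB2i. It differed from the others in its main step, a rise of log2 1.17 (SE 0.054, edgeR adjusted p = 6.57e-14) on adding 2i, with a further 0.40 between F2i and NB2i. Acss2, which makes acetyl-CoA from acetate, was at 2.66 and 2.68 in −F, 3.47 and 3.51 in F, 2.53 and 2.74 in F2i and 7.38 and 7.13 in NB2i, and was 2.76-fold higher in NB2i than in F2i. Its level was among the lowest of the list. Its fall between F and F2i (log2 −0.36) was lost without F2i replicate 1 (log2 −0.30, adjusted p = 0.0577).

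Acaca and Fasn, which build the fatty acid chain, and Elovl6, which lengthens it, were not higher in NB2i than in F2i. Acaca, acetyl-CoA carboxylase, the committed step, was at 19.6 and 22.4 FPKM in −F, 22.5 and 23.7 in F, 13.7 and 13.3 in F2i and 12.2 and 12.1 in NB2i. It is given sample by sample because it was the clearest exception among the fatty acid genes, chosen after its values were seen. The 4 cultures with 2i were below the 4 without. Acaca fell on adding 2i (log2 −0.74, SE 0.053, edgeR adjusted p = 1.11e-10) and between −F and NB2i (log2 −0.72). Its small fall between F2i and NB2i (−0.14, adjusted p = 0.0299) was lost without F2i replicate 1 (log2 −0.12, adjusted p = 0.148), F2i replicate 2 (log2 −0.17, adjusted p = 0.0533), NB2i replicate 1 (log2 −0.15, adjusted p = 0.0846) and NB2i replicate 2 (log2 −0.13, adjusted p = 0.143). Acaca lies over part of Tada2a. Fasn, the synthase that builds palmitate, ran from 62.4 to 72.3 FPKM over all 8 samples. Its fall against F2i (−0.10, adjusted p = 0.0423) was lost without F2i replicate 1 (log2 −0.12, adjusted p = 0.0932), F2i replicate 2 (log2 −0.10, adjusted p = 0.146) and NB2i replicate 2 (log2 −0.07, adjusted p = 0.315). The higher call of Fasn against −F (0.11) was lost without −F replicate 1 (log2 0.06, adjusted p = 0.207) and NB2i replicate 1 (log2 0.09, adjusted p = 0.169). Elovl6, which acts on palmitate, was highest in F2i. It was higher in F than in −F (log2 0.34), in F2i than in F (0.25) and in NB2i than in −F (0.38, adjusted p = 1.18e-07), and lower in NB2i than in F2i (−0.22). Acly, which makes acetyl-CoA from citrate, was higher in NB2i than in the other 3 conditions, by log2 0.44 over −F.

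Several of the smaller calls between F and −F rested on single samples. Without F replicate 2, 13 genes were called higher in place of 19, and Fdps (log2 0.09, adjusted p = 0.227), Fdft1 (log2 0.13, adjusted p = 0.0843), Nsdhl (log2 0.18, adjusted p = 0.141), Acaca (log2 0.12, adjusted p = 0.179), Mvk (log2 0.25, adjusted p = 0.0692) and Fasn (log2 0.14, adjusted p = 0.0622) were lost. Without −F replicate 1, Mvk (log2 0.18, adjusted p = 0.159) and Acaca (log2 0.06, adjusted p = 0.312) were lost, and without −F replicate 2, Fdps (log2 0.10, adjusted p = 0.119), Fdft1 (log2 0.10, adjusted p = 0.0913) and Nsdhl (log2 0.12, adjusted p = 0.237). Without F replicate 1, Mvk (log2 0.23, adjusted p = 0.0863) and Fdft1 (log2 0.12, adjusted p = 0.1) were lost. Stard4 was gained without −F replicate 2 (log2 0.45, adjusted p = 0.0012) or F replicate 1 (log2 0.32, adjusted p = 0.0389). Acat2, called higher in F2i than in F, was lost without F replicate 2 (log2 0.09, adjusted p = 0.242), F2i replicate 1 (log2 0.14, adjusted p = 0.0899) and F2i replicate 2 (log2 0.16, adjusted p = 0.0534). Beside Tm7sf2 and Acaca, Fdft1, Lss, Srebf1, Acss2 and Me1 overlap another gene of the files, and without strand their reads cannot be told apart there.

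Genes that act near the list were compared in the same fit. Of 13 further sterol and SREBP genes, 8 were higher in NB2i than in F2i and 1 was lower, Mid1ip1, which aids acetyl-CoA carboxylase, at 11.6 and 11.7 FPKM in F2i and 6.73 and 6.23 in NB2i (log2 −0.84). Of 12 tested genes of LXR signalling, sterol efflux and storage, 8 were higher and 3 lower. Abcg1, a sterol exporter, was at 4.43 and 4.19 FPKM in −F, 5.07 and 4.56 in F, 1.51 and 1.65 in F2i and 5.15 and 4.99 in NB2i, so that F2i lay below the other 6 samples. Mylip, a ubiquitin ligase for lipoprotein receptors, was at 3.03 and 3.22 in −F and 8.70 and 9.43 in NB2i, a log2 fold change of 1.60. Ch25h, which makes an oxysterol, was at 0 and 0.04 FPKM in −F, 0.88 and 0.61 in F, 0.77 and 0.40 in F2i and 0 in both NB2i samples. It was thus near 0 in both conditions without feeders and was not called between them (adjusted p = 0.346). The fibroblast markers had the same high and low conditions, and their part in this was not tested.

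Of 18 tested further fatty acid genes, 11 were higher in NB2i than in F2i and 4 lower. Elovl7, which lengthens long chain fatty acids, was at 2.64 and 2.51 FPKM in −F, 2.35 and 1.91 in F, 4.70 and 4.14 in F2i and 21.00 and 21.03 in NB2i, which makes a rise of log2 3.10 over −F (SE 0.075, edgeR adjusted p = 2.45e-19). Acsl5, which activates fatty acids, was higher in NB2i than in F2i by log2 1.31, and Elovl4, for very long chains, was lower (log2 −1.10). Of 17 tested genes of fatty acid oxidation, 9 were higher and 3 lower. The 3 with the largest changes were Acadvl at −1.05, Pdk4 at −0.88 and Acadl at 0.74, so they did not share a direction. Beside the 33.3% and 30.8% of all genes called higher and lower between NB2i and F2i, these lists describe the surroundings of the 33 and carry no test of their own.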

How the data were processed

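RNA of N33 ESCs in 4 culture conditions, 2 samples each, was read by the authors from one end, 50 bases a read, with a BGISEQ-500 instrument. Bowtie2 placed the reads on mm10 and RSEM quantified genes, with versions not given in the sources used here. For each sample the authors deposited expected counts, which are RSEM's estimates of reads per gene and were not whole in 29.8% of values, and FPKM, which the authors made by dividing by length and depth. A gene not listed in a sample was taken as 0. Samples were assigned to conditions from their labels. The 33 genes and the lists beside them were chosen with earlier results of these data known.

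Expected counts were rounded and tested in R 4.3.3 with edgeR 4.0.16 (glmQLFit, glmQLFTest, TMM factors 0.9774 to 1.028) on genes that reached 10 counts in 2 or more samples, with all 8 samples in one fit and no block, and Benjamini-Hochberg adjustment over 15287 genes. Standard errors came from the estimate and its F statistic. Total counts were of about equal size, and the lowest count of a listed gene was 145. The authors used DESeq2. Alternatives were DESeq2 1.42.0, its size factors, other filters and thresholds, a replicate block, fits of only the groups compared, leaving out each sample, and limma 3.58.1 on log2(FPKM + 1) and log2(FPKM + 0.1). Scripts were tested on simulated data. Replicates differed by more than sampling noise, most in −F. Chi-square per degree of freedom was 3.712 in −F, 2.383 in F, 2.143 in F2i and 1.885 in NB2i.

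Sample-by-sample values were given for Srebf1, Srebf2, Scap and Insig1 and for up to 6 called genes per role with the largest absolute log2 fold change in any of 5 comparisons. Of the lists beside the 33, up to 3 called genes with the largest change between NB2i and F2i were named. Counts were not whole in at least 1 sample for 13 of the 33 genes, which share reads with others, and 7 genes overlap another gene.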

Additional observations from a re-analysis of the deposited data

How the results depend on the processing

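No called difference of a single gene changed direction under any alternative run. Some that were not called, all near 0, changed sign, and the median log2 fold change of the 33 genes for F2i against F, 0.012, ran from −0.026 to 0.042. Counts of genes called at 2-fold in place of an adjusted p under 0.05 alone were 8 higher and 0 lower for NB2i against F2i, 11 and 0 against −F, 10 and 1 against F, 1 and 0 for F2i against F, 0 and 0 for F against −F, and 12 and 0 for the difference of differences. The 5 genes lower in NB2i than in F2i became 3 at an adjusted p under 0.01, without the low-count filter and with limma on either pseudocount. The 1 gene lower in F than in −F became 0 at an adjusted p under 0.01, with DESeq2, without the filter, with the replicate block and with only the groups compared, and 2 with DESeq2's size factors in edgeR and with limma on either pseudocount. Leaving out each sample in turn gave 26 higher and 3 to 4 lower for NB2i against F2i, 27 to 28 and 3 against −F, 25 and 5 against F, 7 to 9 and 5 to 8 for F2i against F, 13 to 18 and 0 for F against −F, and 28 to 30 and 1 for the difference of differences. Of 198 differences of single genes, 183 kept direction and call with DESeq2 and 196 with the replicate block.

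Replicate numbers showed no sign of pairing the samples. Deviations of same-numbered samples correlated at −0.0878 to 0.0739 over 13212 genes in the 6 pairs of conditions. An effect shared by few genes could not be seen this way. The replicate block gave 26 higher and 4 lower for NB2i against F2i and 19 and 0 for F against −F, and changed no other count. With 2 samples a group, small changes were the least firm.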
